A study of Bos taurus with 28 samples.

Results

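The genes described here encode the core enzymes that burn fatty acids in mitochondria. They were chosen by symbol: CPT1A, ACADVL and ETFA, together with CPT2, ACADM, ACADS, HADHA, HADHB, ETFB and ETFDH. All 10 had a probe in the platform annotation, among 8073 named genes on the array, and all 10 were among the 6958 genes that could be tested. Their liver transcripts were compared between cows with ketosis and healthy cows.

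Fatty acids released from body fat enter liver mitochondria as carnitine esters and are shortened by repeated rounds of oxidation. The electrons of the first step of each round pass through the electron transfer flavoprotein to the respiratory chain. The acetyl-CoA that results feeds the citric acid cycle or, when it accumulates, the synthesis of ketone bodies. In dairy cows this route is loaded most heavily in the weeks after calving, when milk energy exceeds intake.

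The study followed 14 multiparous Holstein cows judged healthy on day 4 after calving and assigned at random to the groups. The 7 ketotic cows received 50% of their earlier feed intake, from day 5 by the design text or day 4 by the sample labels, until they showed signs of ketosis, or through day 14. The 7 healthy cows were controls; the labels of 6 of them state free access to feed, and the title alone places healthy cow 7. Each cow's total liver RNA was hybridised to 2 dye-swapped arrays against a reference of pooled bovine tissues, so each value is a log2 ratio of liver over reference with the array median set to 0, averaged over both arrays of a cow. A value of 1 means a doubled liver signal relative to the reference at that probe.

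Healthy cow 7 stood apart from all others before any comparison. Over all probes its r with any other cow was at most 0.462, while the lowest r between any other pair of cows was 0.716. Ketotic cows had 16.5% ± 4.49 of their spots empty, against 11.9% ± 2.80 in healthy cows (SD, n = 7 each). Spots at the ceiling of the deposited ratios count as empty here and in the covariate used below. The spread of ratios was also wider, with a median absolute deviation of 0.941 ± 0.124 in ketotic and 0.756 ± 0.0865 in healthy cows (SD, n = 7 each). Hepatocyte markers lay above muscle markers on 28 of 28 arrays, by at least 2.80 on the log2 scale, which makes liver over reference the likely direction of the ratios. Results are given with and without healthy cow 7.

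ETFA fell in ketotic liver and was the only one of the 10 genes to pass the test. This is 1 of 10, where 13.4% of all genes passed and 12.4% passed as lower (929 and 865 of 6958), so the members' share was near that of genes in general. The difference was negative for 6 members and positive for 4, with a median of -0.19 on the log2 scale, against -0.18 over all genes. The scaling moved the median over all genes and the split of calls: with arrays centred on the same probes it was -0.053, with 123 genes higher and 493 lower, against 64 higher and 865 lower here, and with values as deposited it was -0.58. The members' median moved further with the scaling: it was -0.50 at a common spread of the arrays, against -0.16 over all genes, and -0.94 at a common spread without healthy cow 7, against -0.14. A common spread lowers high ratios more on arrays with a wide spread, and the ketotic arrays had the wider one. Without healthy cow 7 the difference was negative for 9 of 10 members, with a median of -0.30 against -0.19 over all genes, and CPT1A and ETFA passed, 2 of 10, where 19.9% of all genes did and 18.4% were lower. The ranges of ketotic and healthy cows overlapped for all 10 members, with or without that cow. Overlap was not counted over all genes, so this does not set the members apart from them.

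**Figure D1:**
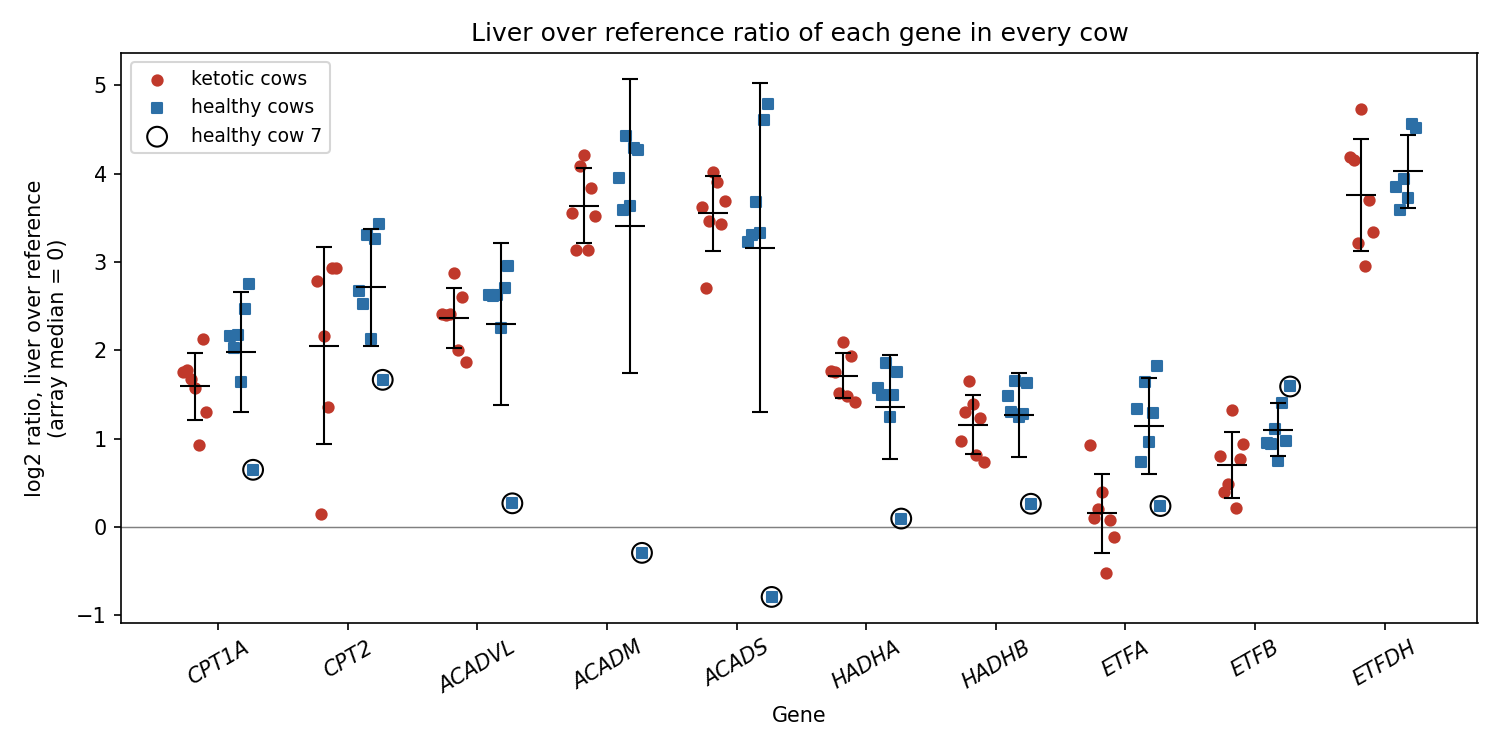
Log2 ratio of liver over reference (vertical axis, array median at 0) for each gene in every cow, ketotic cows as circles on the left and healthy cows as squares on the right of each gene; black bars are means ± SD, and healthy cow 7 is ringed. The ringed cow lies below the other healthy cows for 8 of the 9 genes measured in it, and ETFA is the gene where 6 of 7 ketotic cows lie below every other healthy cow.

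The coverage of these genes was nearly complete. No spot of the 10 genes was at the ceiling of the deposited ratios, and 550 of 560 spots had a value. The 10 missing spots belonged to CPT2 (48 of 56 measured) and ETFDH (54 of 56). Each gene had a single probe, printed as 2 neighbouring spots, and all values of a gene rest on that probe.

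CPT1A, the malonyl-CoA-sensitive carnitine palmitoyltransferase of the outer mitochondrial membrane, controls the entry of long-chain fatty acids. Its log2 ratio had a lowest value of 0.93, a median of 1.68 and a highest of 2.13 in ketotic cows, against 0.65, 2.16 and 2.75 in healthy cows. All 7 ketotic cows lay below the healthy median, and the lowest single value was that of healthy cow 7. The means were 1.59 ± 0.384 in ketotic and 1.98 ± 0.682 in healthy cows (SD, n = 7 each), a log2 difference of -0.39 (SE 0.278, 95% interval -0.98 to 0.20, limma adjusted p = 0.388). Without healthy cow 7 the healthy mean was 2.20 ± 0.378 (SD, n = 6) and CPT1A fell by 0.61 on the log2 scale, 1.53-fold (95% interval of the log2 difference -1.05 to -0.17, adjusted p = 0.0481). That call is narrow and moved with the scaling. Still without that cow, the adjusted p was 0.0557 with arrays centred on the medians of their spots and 0.1004 with arrays centred on the same probes. It was 0.00770 at a common spread of the arrays and 0.0184 after quantile normalisation.

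CPT2, the carnitine palmitoyltransferase of the inner membrane, regenerates the acyl-CoA in the matrix. Its log2 ratio ran from 0.15 through a median of 2.48 to 2.93 in 6 ketotic cows (ketotic cow 1 had a value on 1 array only), against 1.67, 2.67 and 3.43 in healthy cows. The lowest value, in ketotic cow 3, averaged arrays that disagreed, at -1.87 with liver in Cy3, where 1 of 2 spots had a value, and at 2.17 with liver in Cy5. The log2 difference was -0.66 (SE 0.447, 95% interval -1.61 to 0.30, adjusted p = 0.361), -0.83 without healthy cow 7 (adjusted p = 0.201) and -0.28 without ketotic cow 3 (adjusted p = 0.658). CPT2 had the largest spread between ketotic cows of all 10 genes, with an SD of 1.11.

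The acyl-CoA dehydrogenases take the first electrons from fatty acids of different chain lengths, and none of the 3 measured here passed. ACADVL, the very-long-chain enzyme bound to the inner membrane, had log2 ratios from 1.87 through a median of 2.41 to 2.87 in ketotic cows, against 0.27, 2.63 and 2.96 in healthy cows. Apart from healthy cow 7, the healthy cows kept to a narrow band, from 2.26 upward, with an SD of 0.224 (n = 6). The log2 difference was 0.077 over all cows (95% interval -0.64 to 0.80, adjusted p = 0.913), and -0.26 without healthy cow 7 (-0.62 to 0.097, adjusted p = 0.299). The sign of the ACADVL difference thus turned with a single cow, while both intervals included 0.

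ACADM, the medium-chain enzyme, had log2 ratios from 3.13 through 3.55 to 4.21 in ketotic cows, against -0.29, 3.95 and 4.42 in healthy cows. ACADS, the short-chain enzyme, ran from 2.71 through 3.63 to 4.02 in ketotic cows, against -0.79, 3.33 and 4.79 in healthy cows. For both genes the lowest healthy value was that of healthy cow 7, by 4.32 below the mean of the other healthy cows for ACADM and by 4.61 for ACADS. The log2 difference of ACADM was 0.23 over all cows (adjusted p = 0.841) and -0.39 without that cow (95% interval -0.84 to 0.065, adjusted p = 0.217). That of ACADS was 0.39 (adjusted p = 0.748) and -0.27 without that cow (95% interval -0.89 to 0.34, adjusted p = 0.545). With all cows in, the intervals were wide, from -1.001 to 1.46 for ACADM and from -0.98 to 1.75 for ACADS.

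HADHA and HADHB form the mitochondrial trifunctional protein, which carries out the remaining steps on long chains. HADHA, the hydratase and hydroxyacyl-CoA dehydrogenase subunit, had log2 ratios from 1.41 through 1.76 to 2.10 in ketotic cows, against 0.096, 1.50 and 1.86 in healthy cows. Its log2 difference was 0.35 over all cows (95% interval -0.15 to 0.85, adjusted p = 0.352). Without healthy cow 7 it was the only positive one of the 10, at 0.14 (-0.17 to 0.46, adjusted p = 0.540), but there it was -0.16 at a common spread and -0.092 after quantile normalisation. HADHB, the thiolase subunit, ran from 0.73 through 1.23 to 1.66 in ketotic cows, against 0.26, 1.30 and 1.66 in healthy cows. Its log2 difference was -0.11 (95% interval -0.57 to 0.35, adjusted p = 0.798) and -0.28 without healthy cow 7 (-0.62 to 0.067, adjusted p = 0.247). Neither subunit passed with either set of cows. Whether the 2 subunits differed from each other was not tested.

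The electron transfer flavoprotein, a dimer of the ETFA and ETFB products, collects electrons from the acyl-CoA dehydrogenases, and ETFDH hands them to ubiquinone. ETFA had log2 ratios of 0.93, 0.10, 0.21, 0.40, -0.52, 0.081 and -0.11 in ketotic cows 1 to 7, against 1.33, 0.74, 1.64, 0.96, 1.29, 1.83 and 0.24 in healthy cows 1 to 7. All 7 ketotic cows lay below the healthy mean, and 6 of them lay below every healthy cow but the seventh; ketotic cow 1 reached into the healthy range. The means were 0.16 ± 0.446 in ketotic and 1.15 ± 0.546 in healthy cows (SD, n = 7 each). The ETFA ratio thus fell by 0.99 log2 units, or 1.99-fold (SE 0.254, 95% interval -1.53 to -0.45, limma adjusted p = 0.0203). Without healthy cow 7 it fell by 1.14, 2.21-fold (95% interval -1.62 to -0.66, adjusted p = 0.00410). By p-value ETFA ranked 467 of 6958 genes.

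ETFB, the beta subunit, had log2 ratios from 0.22 through 0.77 to 1.33 in ketotic cows, against 0.75, 0.97 and 1.59 in healthy cows. Here healthy cow 7 held the highest value, not the lowest. The log2 difference was -0.40 (SE 0.187, 95% interval -0.80 to -0.0019, adjusted p = 0.174), -0.32 without healthy cow 7 (-0.69 to 0.059, adjusted p = 0.225). ETFDH, the ubiquinone oxidoreductase, ran from 2.96 through 3.70 to 4.73 in ketotic cows, against 3.59, 3.89 and 4.57 in the 6 healthy cows with both arrays. Its difference was -0.27 (95% interval -0.88 to 0.33, adjusted p = 0.578). Healthy cow 7 had no ETFDH value on 1 array and is not among these 6.

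**Figure D2:**
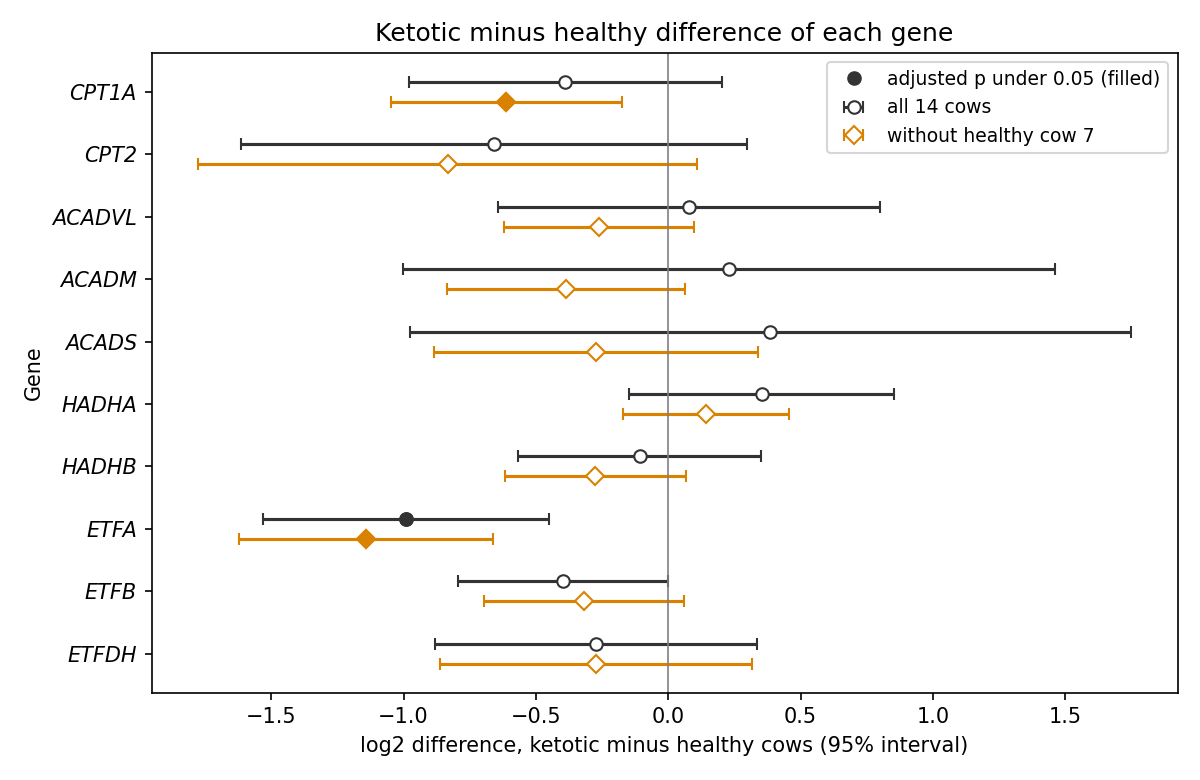
Log2 difference, ketotic minus healthy cows (horizontal axis), with its 95% interval from limma for each gene, from all 14 cows (circles) and without healthy cow 7 (diamonds); filled symbols have an adjusted p under 0.05. ETFA is filled in both fits and CPT1A only without healthy cow 7; the intervals of ACADM and ACADS shrink and their estimates move below 0 without that cow.

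The dye-swapped arrays of a cow give a technical check on each value. For ETFA the arrays of a cow differed by a median of 0.292 (absolute log2 difference, 14 cows), well under the difference between the groups. The ETFA difference was -1.03 with liver in Cy3 alone and -0.95 with liver in Cy5 alone, close to each other in size. With a single array per cow neither passed (adjusted p = 0.0658 and 0.0612). For ETFB, the Cy5 array of a cow gave the higher ratio in 14 of 14 cows, by 0.688 on average. An offset shared by both groups cancels from their difference. The ETFB difference was -0.48 with liver in Cy3 alone and -0.32 with liver in Cy5 alone (limma adjusted p = 0.118 and 0.478). The ETFDH difference was -0.54 with liver in Cy3 alone (limma interval -1.08 to 0.0022, 7 healthy cows). With liver in Cy5 alone it was 0.033 (interval -1.03 to 1.09, 6 healthy cows). These intervals overlapped, and healthy cow 7 entered the Cy3 fit only. Whether the ETFDH difference varied with the dye was not tested. The CPT1A arrays of a cow differed by a median of 0.383, about the size of its difference over all cows. That difference was -0.36 with liver in Cy3 alone and -0.42 with liver in Cy5 alone (limma adjusted p = 0.549 and 0.481).

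**Figure D3:**
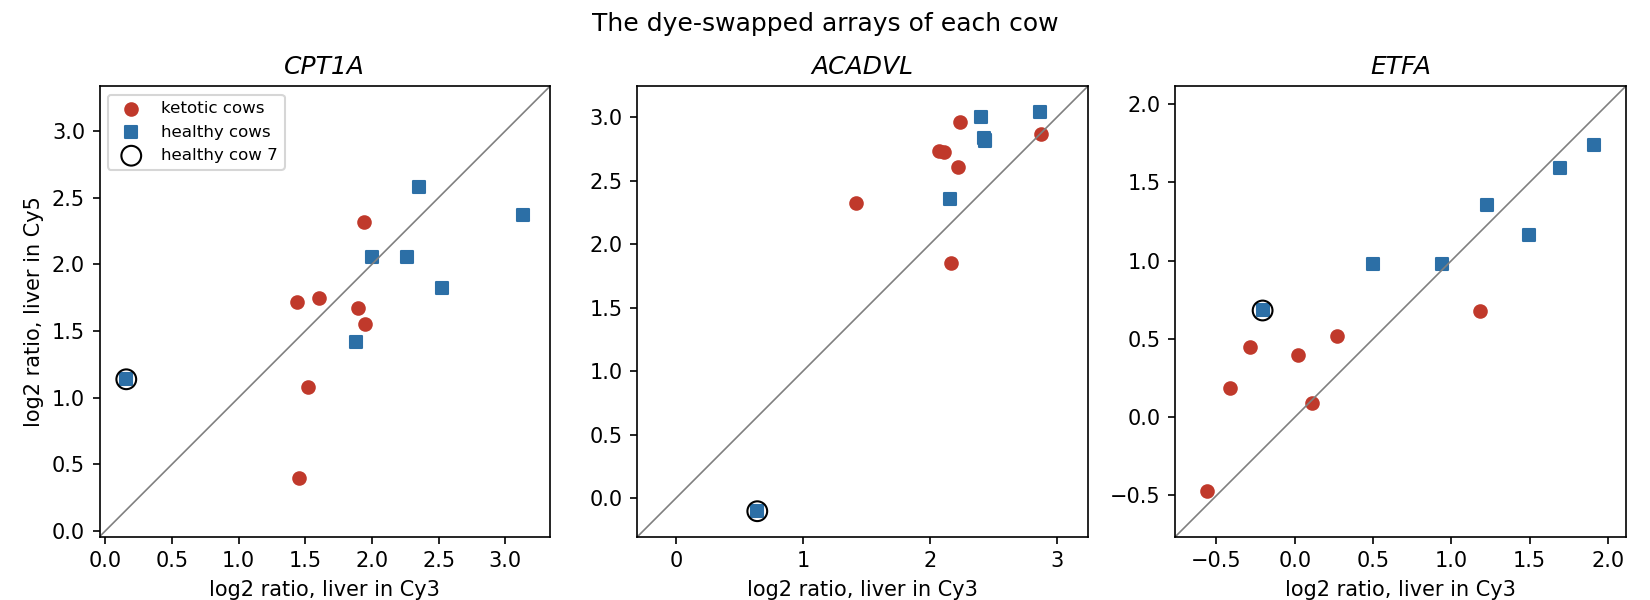
Log2 ratio of CPT1A, ACADVL and ETFA on the array with liver in Cy3 (horizontal axis) and on the array with liver in Cy5 (vertical axis); each point is a cow, circles ketotic and squares healthy, healthy cow 7 ringed, and the line marks equal values. For ETFA, the lowest array value among healthy cows other than cow 7 is 0.50, while for ACADVL healthy cow 7 is low on both of its arrays, at 0.64 and -0.10.

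The number of passing members moved with the treatment of array quality and scaling, and the part of array quality in these differences was not tested further. With each cow's percentage of empty spots as a covariate the ETFA difference was -1.05 (adjusted p = 0.0903), and no member passed, where 2.41% of all genes did. With all arrays scaled to a common spread ETFA and ETFDH passed (7.9% of all genes passed), and the ETFDH difference was -0.99 (adjusted p = 0.0479). With values as deposited ETFA and ETFB passed (35.6% of all genes passed). Quantile normalisation without healthy cow 7 gave CPT1A, ACADS and ETFA (19.8% of all genes passed). With a common spread and without healthy cow 7, 8 of 10 members fell, where 21.3% of all genes passed and 18.9% were lower. HADHA (-0.16) and HADHB (-0.49) were the exceptions, and ACADVL, at -0.71 (adjusted p = 0.0241), ACADM, at -1.09 (0.0128), and ACADS, at -0.94 (0.00463), were among those that fell. In that fit 6 of 12 measured hepatocyte markers also fell and none rose, with a median of -0.84. Their part in the members' differences was not tested. A common spread divides each array by its own spread, which was wider in ketotic cows (0.941 against 0.756 with all cows in). High ratios are thereby lowered more in ketotic cows. The members' mean ratios lay above the array median in both groups, so the share over all genes is not a like baseline for them. How much of their fall came from the scaling was not tested. Of the 10 members, ETFA alone passed under each of the 4 further scalings of all 14 cows in the plot of differences by setting.

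**Figure D4:**
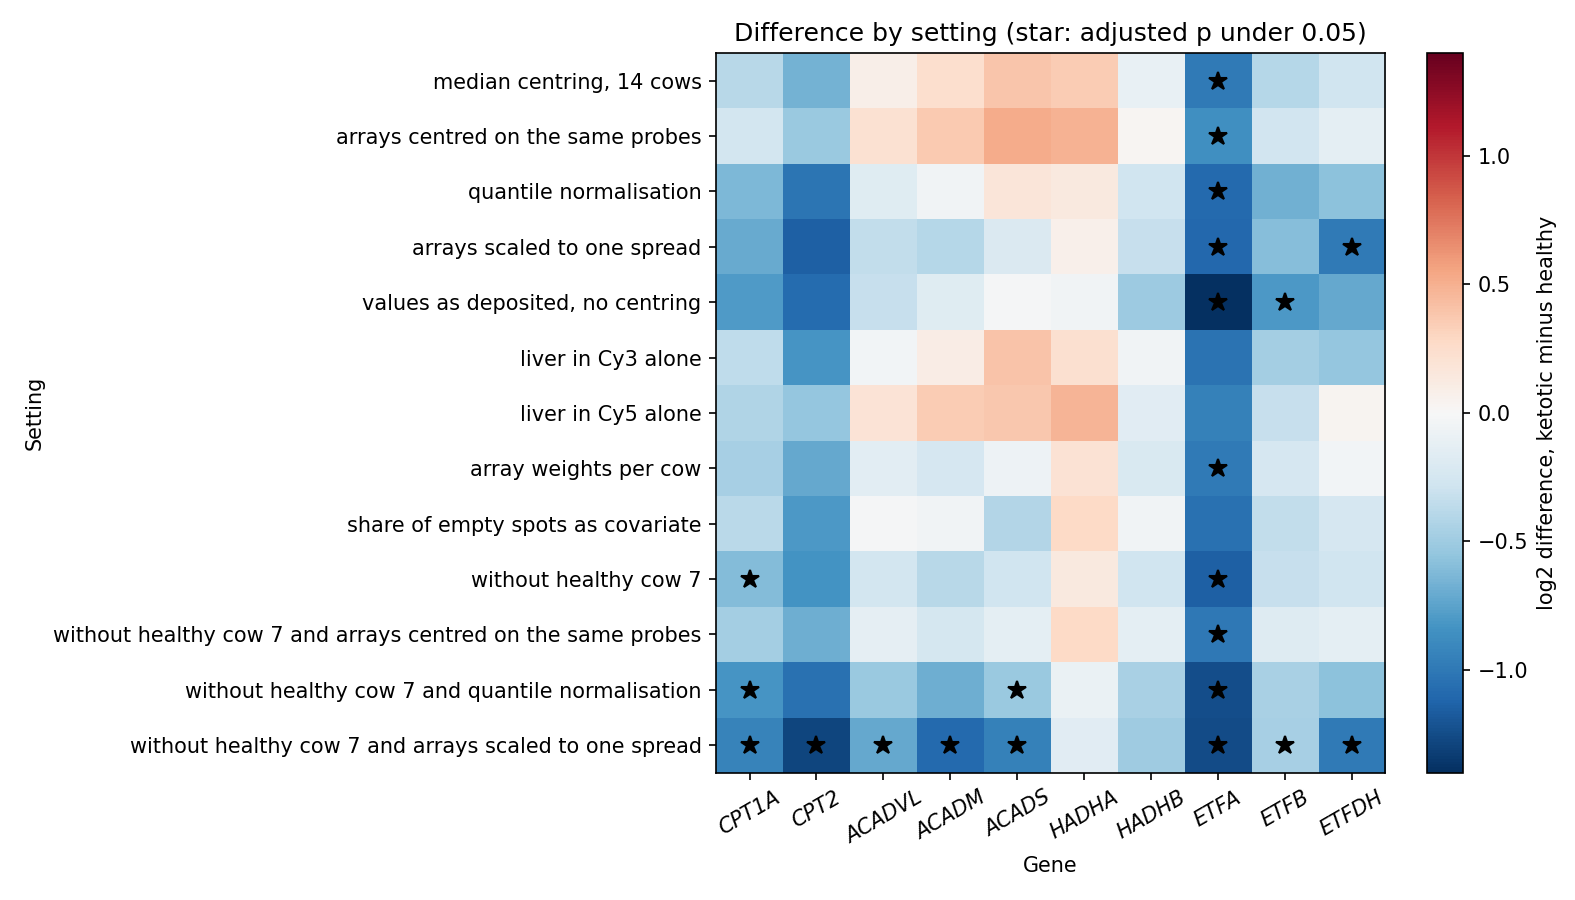
Log2 difference, ketotic minus healthy cows, as colour (blue lower and red higher in ketotic cows) for each gene (columns) under 13 settings (rows); a star marks an adjusted p under 0.05. ETFA is blue in every row and starred in 10 of 13, whereas ACADVL, ACADM and ACADS change colour with the scaling and with healthy cow 7.

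In whole liver, fewer cells of a type and less RNA per cell cannot be told apart. Of 12 measured hepatocyte markers (15 listed) 2 rose and none fell (none rose at a common spread, 1 fell without healthy cow 7, and 6 fell with both changes), and the median over the 11 measured in all cows ran from 5.37 to 7.02 in ketotic cows, against 3.15 to 6.92 in healthy cows. Of 7 measured macrophage markers (11 listed) 3 fell, and the median over 4 of them ran from 0.12 to 0.90 in ketotic cows, against 0.46 to 1.71 in healthy cows. Over all genes, 64 of 6958 rose and 12.4% fell with all cows. The share that fell was 18.4% without healthy cow 7 and 18.9% without that cow at a common spread. Healthy cow 7 had the lowest hepatocyte median, 3.15, against 4.97 or more in the other healthy cows, and the highest stellate and fibroblast median (7 genes), 0.41, against -0.29 or less. Its endothelial median (3 genes) was -0.81, against 2.71 or more in the other healthy cows. Its macrophage (0.46) and muscle (-0.64) medians were also below theirs, by little for macrophages (0.50 or more). Its lymphocyte median (-0.024) lay within their range. The part of these cell types in the ETFA difference was not tested.

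Calls among other genes of fatty acid oxidation were few with median centring and more numerous under some scalings. Without healthy cow 7, 8 of 16 further mitochondrial genes and 7 of 13 peroxisomal genes fell at a common spread (21.3% of all genes passed), and 6 of 16 and 5 of 13 after quantile normalisation (19.8%). The limit given above for a common spread holds for these counts too. With median centring and all cows, of 17 measured further mitochondrial genes (28 listed), ETFRF1 rose and none fell, where 13.4% of all genes passed. The list median was 0.13 on the log2 scale, or -0.24 at a common spread. ETFRF1, described in human cells as a protein that binds the electron transfer flavoprotein, had ratios from 0.997 through 1.81 to 3.23 in 6 ketotic cows, against -0.72, 0.19 and 1.03 in 5 healthy cows. Its difference was 1.70 (3.24-fold, adjusted p = 0.0228), and the lowest ketotic value lay just under the highest healthy one. The call was lost in 4 of 22 alternatives, with an adjusted p of 0.0785 at a common spread and 0.0752 after quantile normalisation. Leaving out any of its 5 measured healthy cows, healthy cow 7 among them, left too few values for a fit. The fits without healthy cow 4 or healthy cow 5 returned the same 1.70, since neither had a value. The weight of single healthy cows in this difference was thus not tested. SLC25A20, the carnitine-acylcarnitine translocase of the inner membrane, differed by -0.032 (adjusted p = 0.972), and by -0.45 once healthy cow 7 was left out (adjusted p = 0.158). Without that cow 2 of 16 genes fell and none rose, where 18.4% of all genes fell. They were HADH, the hydroxyacyl-CoA dehydrogenase of shorter chains (-0.99, adjusted p = 0.0159, against -0.82 and 0.0754 with all cows), and HSD17B10, a hydroxyacyl-CoA dehydrogenase that acts on branched chains and steroids (-0.93, adjusted p = 0.0131, against -0.58 and 0.337 with all cows). The list median was -0.18 without healthy cow 7.

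None of 13 measured peroxisomal genes (19 listed) passed with median centring and all cows, where 13.4% of all genes did. The smallest p was that of ABCD3, a transporter of the peroxisomal membrane, with a log2 difference of -0.60 (adjusted p = 0.0550; 0.0350 without healthy cow 7, where the same 6 healthy cows entered). Without healthy cow 7 PEX5, the import receptor of peroxisomal enzymes, also fell (-0.76, adjusted p = 0.0121, against -0.32 and 0.667 with all cows). That made 2 of 13 peroxisomal genes, where 18.4% of all genes fell. Of 14 measured regulators (19 listed), 1 fell with all cows and 2 fell without healthy cow 7, where 12.4% and 18.4% of all genes did. SIRT5, a mitochondrial deacylase, fell with all cows by 0.71 on the log2 scale (1.63-fold, adjusted p = 0.0266). Without healthy cow 7 it fell by 0.82 (limma adjusted p = 0.00485). Its ratios ran from -1.55 through -1.35 to -0.77 in ketotic cows, against -1.20, -0.34 and -0.22 in healthy cows, so the groups overlapped. The call was lost in 11 of 32 alternatives. ACACA, whose product malonyl-CoA inhibits CPT1A, did not pass over all cows (-0.78, adjusted p = 0.0564) and fell without healthy cow 7 (-0.81, adjusted p = 0.0446). MLYCD, which degrades malonyl-CoA, differed by 0.59 (adjusted p = 0.128), and by 0.41 without that cow (limma adjusted p = 0.154). PPARA, the nuclear receptor that drives these genes in fasted rodents, differed by 0.22 (adjusted p = 0.813) and PPARGC1A, its coactivator, by 0.44 (adjusted p = 0.279). Without healthy cow 7 the PPARA difference turned to -0.13 (limma adjusted p = 0.841), and that of PPARGC1A was 0.32 (0.387). HADH, HSD17B10, PEX5, ACACA, MLYCD, PPARA, PPARGC1A and SLC25A20 were named here after their values were seen.

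The members varied together between cows of the same group. Over the 13 cows without healthy cow 7, and with group means removed, 43 of 45 pairs of members correlated above 0, with a median Pearson r of 0.505. The range was -0.23 for CPT2 with HADHB to 0.851 for ACADVL with HADHA. Each member's median r with the other members was 0.291 to 0.646, and its median r with the 5670 or 5671 genes measured in all of these cows was 0.0135 to 0.233. These correlations describe the cows, whose genes share arrays, scaling and reference. The members' mean ratios lay above the array median, so all genes are not a like baseline here either. Other genes of similar ratio were not compared.

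**Figure D5:**
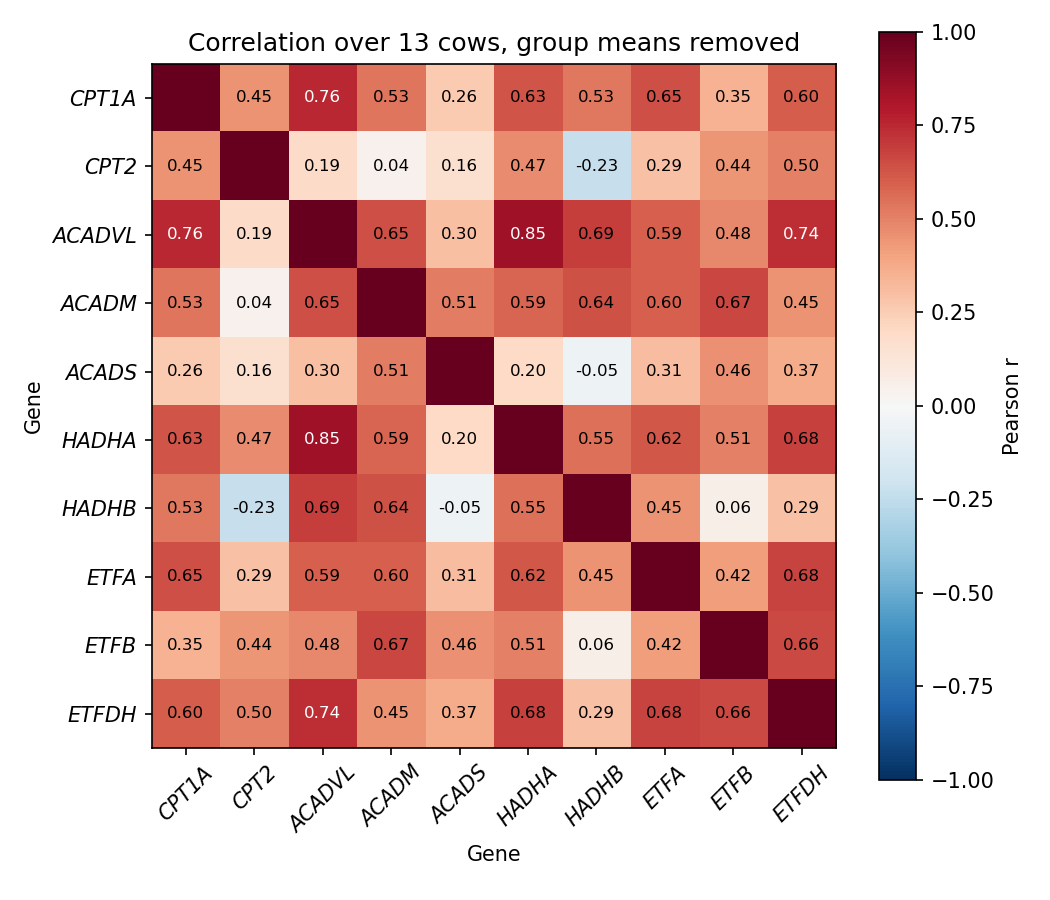
Pearson correlation between the 10 genes (both axes) over 13 cows, healthy cow 7 left out, after subtraction of each group's mean (12 cows for pairs with CPT2). ACADVL and HADHA correlate most, at 0.85, and CPT2, HADHB and ACADS hold the palest cells.

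Among partners in a complex or a shared step, 4 pairs were examined by permutation within groups, two-sided, and none passed after Benjamini-Hochberg adjustment over the 4. ETFA with ETFDH had Pearson's r = 0.676 (permutation p = 0.0159, adjusted 0.0635) and Spearman's rho = 0.626 (permutation p = 0.0322, adjusted 0.0830) over 13 cows. Its r was 0.692 within ketotic and 0.669 within healthy cows, and 0.567 without the 2 cows farthest from the ETFA median. HADHA with HADHB had r = 0.551 (permutation p = 0.0748, adjusted 0.150) and rho = 0.615 (permutation p = 0.0415, adjusted 0.0830), 0.421 within ketotic and 0.927 within healthy cows, and 0.467 without the 2 farthest cows. ETFA with ETFB had r = 0.421 (permutation p = 0.182, adjusted 0.184) and rho = 0.495 (permutation p = 0.106, adjusted 0.111), with r of 0.488 within ketotic and 0.297 within healthy cows, 0.253 without the 2 farthest cows and 0.052 with healthy cow 7 included. CPT1A with CPT2 had r = 0.446 (permutation p = 0.184, adjusted 0.184) and rho = 0.504 (permutation p = 0.111, adjusted 0.111) over 12 cows, with r of 0.285 within ketotic and 0.890 within healthy cows, and 0.328 without the 2 farthest cows. With healthy cow 7 included, r rose to 0.840 for HADHA with HADHB and to 0.558 for CPT1A with CPT2. ETFDH had no value over both arrays in that cow.

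The genes whose pattern over the same 13 cows was most like each lead gene were taken from 5670 named genes by Spearman's rho of the ratios, as a description. For CPT1A these were PRADC1 (rho = 0.973), UBE2R2 (0.940) and FKBP1A (0.918). Their own log2 differences over all cows were -0.56, -0.34 and -0.58 (limma adjusted p = 0.0245, 0.227 and 0.0432). Pearson's r with CPT1A was 0.902, 0.929 and 0.864 once group means were removed. For ACADVL they were SLC25A20 (rho = 0.912), TRAPPC4 (0.907) and FBXW4 (0.901). Their differences were -0.032, -0.22 and -0.75 (limma adjusted p = 0.972, 0.509 and 0.0477). Pearson's r with ACADVL was 0.799, 0.778 and 0.764 once group means were removed. For ETFA they were HIKESHI (rho = 0.973), RTN4 (0.973) and MGST3 (0.967), whose own log2 differences were -1.32, -0.75 and -0.95 (adjusted p = 0.00816, 0.0446 and 0.0386). All 3 therefore fell like ETFA, and a difference between the groups adds to each rho. With group means removed, Pearson's r with ETFA was 0.774 for HIKESHI, 0.899 for RTN4 and 0.845 for MGST3.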

How the data were processed

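Liver RNA of 14 cows was measured on 28 two-colour cDNA arrays against a pooled reference. The authors deposited 1 log2 ratio of both dyes for each spot, uncentred, with array medians between -1.05 and 2.16. How they made these values was not given in the sources used here, and the direction of the ratio is likely, not stated. Values at the ceiling of 16.61 (6245) and empty cells (103458) counted as missing.

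Arrays with liver in Cy3, by title, were turned in sign, neighbouring spots averaged to 13824 probes, arrays centred on their probe medians and both arrays of a cow averaged. Probes with values in at least 5 cows per group were named through the platform annotation and the gene table of assembly ARS-UCD2.0 and averaged to 6958 genes. Groups were compared with limma 3.58.1 in R 4.3.3, two-sided, with Benjamini-Hochberg adjustment over all genes and a threshold of 0.05; intervals are 95% from the moderated errors. Permutations numbered 100000. The fit was tested on simulated data. Alternatives covered scaling, dyes, filters, models and each cow left out. The members and lists were chosen with earlier results of these data known. Named were all members, passing genes of 3 further lists (otherwise the smallest p), and 3 genes most like each of 3 lead members. No batch is labelled, so none was tested, and the number of arrays limits the precision. Figures used matplotlib 3.10.9.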

Additional observations from a re-analysis of the deposited data

Results flagged for a closer look

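In 32 groups of values, the ketotic or the healthy cows for each of 13 genes and 3 array measures, 6 held a cow far from the others, where chance gives about 1 in 20, or 1.6. All 6 were healthy cow 7, so they are not independent. Its median correlation with its group was 0.408, against 0.870 to 0.887 for the other healthy cows. Its log2 ratio was 0.27 for ACADVL (other healthy cows from 2.26), -0.29 for ACADM (from 3.59), -0.79 for ACADS (from 3.23), 0.096 for HADHA (from 1.24) and 0.26 for HADHB (from 1.25). With liver in Cy3 and in Cy5 its arrays gave -0.058 and -0.53 for ACADM, but -0.31 and 0.84 for HADHB.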

How the results depend on the processing

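No paired analysis was possible because the labels number each cow separately and pair none across the groups. Of 33 alternatives, ETFA kept its direction in all and its call in 30; it lost the call with liver in Cy3 alone (-1.03), liver in Cy5 alone (-0.95) and empty spots as a covariate (-1.05), which left no member passing (0 in each of the 3). Leaving out each cow gave ETFA -1.14 to -0.88, CPT1A -0.61 to -0.26, ACADVL -0.26 to 0.19, ACADM -0.39 to 0.40, ACADS -0.27 to 0.66, 652 to 1368 passing genes and 1 to 2 passing members. The count of passing genes was 2477 as deposited, 616 with arrays centred on the same probes, 550 with a common spread, 562 with quantile normalisation, 12 with Cy5 alone, 1435 with array weights and 168 with the covariate; 2 members passed as deposited and 2 with a common spread. Some signs turned, none of them of a difference that passed with median centring and all cows. For values as deposited they were -0.32 (ACADVL), -0.17 (ACADM), -0.015 (ACADS) and -0.047 (HADHA). With a common spread they were -0.35 (ACADVL), -0.40 (ACADM) and -0.20 (ACADS). With quantile normalisation they were -0.17 (ACADVL) and -0.048 (ACADM). With array weights they were -0.15 (ACADVL), -0.24 (ACADM) and -0.074 (ACADS), and with the covariate -0.015 (ACADVL), -0.054 (ACADM) and -0.41 (ACADS). ACADVL was -0.037 with Cy3 alone, ETFDH 0.033 with Cy5 alone and HADHB 0.023 on the same probes. Settings added after seeing the data left out healthy cow 7 and changed the scaling. On the same probes they gave -0.12 (ACADVL), -0.25 (ACADM) and -0.14 (ACADS). With spot medians they gave -0.24 (ACADVL), -0.36 (ACADM) and -0.25 (ACADS). With quantile normalisation they gave 3 passing members, CPT1A -0.82, ACADVL -0.52, ACADM -0.68, ACADS -0.52 and HADHA -0.092. With a common spread they gave 1466 genes and 8 members passing, CPT1A -0.93, ACADVL -0.71, ACADM -1.09, ACADS -0.94 and HADHA -0.16. In that last setting CPT2, ETFB and ETFDH passed too (limma adjusted p = 0.0347, 0.0416 and 0.0203). Apart from ETFA, the sign or the call of each member thus moved with healthy cow 7 or the scaling. The cause was not tested. Dim spots could not be filtered, since intensities were not used here.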
